A study of Drosophila melanogaster with 2 samples.

Results

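The mitochondrial ribosomal protein genes of Drosophila melanogaster were taken as the protein-coding genes of the Ensembl BDGP6 annotation whose symbol starts with mRpL or mRpS. There were 73 of them among 13968 protein-coding genes, 47 for the large subunit (mRpL) and 26 for the small subunit (mRpS). The study mapped the chromatin sites of CG6654, a C2H2 zinc finger protein, by immunoprecipitation and sequencing (ChIP-seq) from flies that carry a transgene of CG6654 fused to GFP at its C terminus. Whole embryos of both sexes were collected between 0 and 12 h of development, and an antibody against GFP was used. The series holds 1 group, strain CG6654-GFP, with biological replicates 1 and 3 from the same line; the promoter that drives the transgene is not given in the labels, and mixed stages and cell types enter each value. No contrast between conditions can be drawn from 1 group, so what follows describes where the deposited regions lie and gives no test.

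The mitochondrial ribosome translates the few proteins that are still encoded by mitochondrial DNA, all of them core subunits of the respiratory chain and ATP synthase. Its own proteins are made from nuclear genes and imported, so the output of many scattered nuclear promoters has to be matched to build a large and a small subunit. Some of these proteins have bacterial relatives, whereas others are found only in mitochondria. In the compact genome of the fly, neighbouring genes often start from a common stretch of DNA and run in opposite directions, and such a stretch is called a divergent promoter here.

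The sequences under the peaks were rich in A and T. Shown here are the summit base and 50 bases to either side of it for the strongest sites, for the pair with Cdk1, and for the site with the lowest GC content, each read on the strand of the ribosomal protein gene from the Release 6 genome (dm6), with runs of 7 or more A and T in capitals. Windows of some bound members, among them mRpL41 and mRpL34, are not shown.
mRpS10 (chr3R:15229470-15229570, plus strand): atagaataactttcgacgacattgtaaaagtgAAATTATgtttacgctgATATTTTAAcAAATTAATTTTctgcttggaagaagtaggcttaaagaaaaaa
mRpS23 (chr2L:13835405-13835505, minus strand): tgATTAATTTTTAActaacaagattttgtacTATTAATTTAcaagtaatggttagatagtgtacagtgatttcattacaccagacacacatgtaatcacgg
mRpL23 (chr3L:2373561-2373661, minus strand): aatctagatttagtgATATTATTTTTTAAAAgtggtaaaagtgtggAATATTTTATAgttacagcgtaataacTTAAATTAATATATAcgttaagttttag
mRpL24 (chr2L:4945481-4945581, minus strand): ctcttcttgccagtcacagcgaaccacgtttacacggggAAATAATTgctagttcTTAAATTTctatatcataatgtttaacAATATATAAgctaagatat
mRpL20 (chr3L:13018091-13018191, minus strand): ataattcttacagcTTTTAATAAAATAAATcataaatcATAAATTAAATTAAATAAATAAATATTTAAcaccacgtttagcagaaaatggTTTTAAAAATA
mRpS7 (chr2L:10386412-10386512, plus strand): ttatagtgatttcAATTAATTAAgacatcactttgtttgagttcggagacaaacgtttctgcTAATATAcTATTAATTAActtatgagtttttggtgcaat
The window of mRpS6 is shown with 100 bases to either side because it differs from these. Its capitals mark the letters of a core of Motif 1, the promoter element bound by the factor M1BP, read here as the reverse complement of GGTCACACT.
mRpS6 (chr3L:4364051-4364251, plus strand): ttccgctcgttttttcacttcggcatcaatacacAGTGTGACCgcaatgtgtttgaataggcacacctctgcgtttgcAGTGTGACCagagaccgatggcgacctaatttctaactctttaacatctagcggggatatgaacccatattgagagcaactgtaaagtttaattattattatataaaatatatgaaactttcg

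A CG6654 peak of the authors' thresholded set stood at 14 of the 73 genes. Peaks were taken from the authors' set of 2962 regions thresholded by the irreproducible discovery rate (IDR), made from both replicates. Not every region of this set was found in each replicate: 92.6% were overlapped by a region of replicate 1 and 99.7% by one of replicate 3. A gene counted as bound if any annotated transcript start had a peak summit no more than 500 bp away. By this rule 19.2% of the mitochondrial ribosomal protein genes were bound, beside 10.9% of all protein-coding genes. Small-subunit genes had 7 of 26 bound (26.9%) and large-subunit genes 7 of 47 (14.9%). The bound genes were mRpS2, mRpS6, mRpS7, mRpS10, mRpS18B, mRpS22 and mRpS23, and mRpL20, mRpL23, mRpL24, mRpL32, mRpL34, mRpL37 and mRpL41. Each had 1 peak by this rule.

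The signal, which is the authors' own value per region and has no stated scale, split the peaks into a strong set of 4 and a weaker set of 10. The 4 strong peaks, at mRpL41, mRpS10, mRpS23 and mRpL23, had signals of 515 to 857 and were among the 296 peaks with the highest signals in the IDR set. The other 10 lay between 80.0 and 249. Over all 14 the median was 136, against 140 for the 1200 other IDR peaks at protein-coding starts and 129 for all IDR peaks.

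The strongest site belonged to mRpL41, a large-subunit protein found in mitochondria and not in bacteria. Its peak (FBgn0034001; 2R, 15217582 to 15217913) had a signal of 857, which ranked 119 in the IDR set, with 359 in replicate 1 and 510 in replicate 3. Its summit was intergenic and lay 143 bp upstream of the start. This was the only bound member without a divergent protein-coding partner within 500 bp; the other start near the summit was that of lncRNA:CR44463, a non-coding RNA gene on the same strand, 435 bp away.

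Next came mRpS10, a small-subunit protein with a bacterial relative. Its peak (FBgn0038307; 3R, 15229365 to 15229691) had a signal of 813, with 336 in replicate 1 and 476 in replicate 3. The summit stood 145 bp upstream of mRpS10 and 112 bp from the start of Art3, which encodes an arginine methyltransferase and runs the other way. The gene of CG6654 itself lies on the same arm (FBgn0038301; 3R, 15211277 to 15213658), and its 5' end is 15862 bp from that summit.

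The third site, at mRpS23 (FBgn0260407; 2L, 13835314 to 13835595), had a signal of 709, with 288 in replicate 1 and 418 in replicate 3. This summit was closer to CenG1A, a GTPase-activating protein for small GTPases, at 109 bp, than to mRpS23, at 383 bp. The fourth, at mRpL23, a protein of the large subunit with a bacterial relative (FBgn0035335; 3L, 2373464 to 2373749), had a signal of 515, with 234 in replicate 1 and 277 in replicate 3. It was the only summit downstream of the nearest ribosomal protein start. It lay in the 5' UTR of mRpL23, 67 bp downstream of the nearest of its 3 annotated starts. The divergent start of CG9004, upstream of mRpL23, was 117 bp away.

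Among the weaker large-subunit sites, mRpL24 stood highest (FBgn0031651; 2L, 4945410 to 4945617), with a signal of 249, 103 in replicate 1 and 146 in replicate 3. Its summit was 48 bp from the start of betaggt-I, a subunit of a protein geranylgeranyl transferase, and 170 bp from that of mRpL24. The site of mRpL20 (FBgn0036335; 3L, 13017949 to 13018332) had a signal of 132, with 36.8 in replicate 1 and 84.7 in replicate 3, and lay 125 bp from Icmt, which methylates prenylated proteins. In both cases the nearer start belonged to an enzyme of the protein prenylation pathway. That likeness was picked by eye from the partners of 13 bound members, and no background share was counted for it. The site of mRpL34 (FBgn0083983; 2R, 16098568 to 16098951) had a signal of 104; replicate 3 held a region with 50.6 there and replicate 1 held none. It lay 188 bp upstream of mRpL34 and 196 bp from Dg, which encodes Dystroglycan, a receptor for the extracellular matrix. The site of mRpL37 (FBgn0261380; 3R, 10784049 to 10784432) had a signal of 82.7, with 34.8 in replicate 1 and 45.6 in replicate 3, and its summit lay 149 bp upstream of mRpL37.

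The peak counted for mRpL32 was a secondary summit of a stronger site. Its region (FBgn0039835; 3R, 31252169 to 31252601) carried 2 summits. The one within the window, 325 bp upstream of mRpL32, had a signal of 136, with 18.7 in replicate 1 and 66.3 in replicate 3. The other had a signal of 661, with 282 in replicate 1 and 373 in replicate 3, and lay 529 bp upstream of mRpL32, just outside the window. Both stood in the 5' UTR of qless, which has more than 1 annotated start; the weaker was 61 bp from one of them and the stronger 169 bp from another, so most of the signal of this region was nearer to qless, an enzyme of coenzyme Q synthesis, than to mRpL32.

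Among the weaker small-subunit sites the signals ran from 80.0 to 155. The highest was at mRpS2 (FBgn0031639; 2L, 4850530 to 4850663), with 155 in the IDR set, 48.2 in replicate 1 and 96.9 in replicate 3; its summit was 65 bp from Mon1, which acts in endosome maturation, and 157 bp from mRpS2. At mRpS6 (FBgn0035534; 3L, 4364106 to 4364244) the signal was 137, with 45.3 in replicate 1 and 84.7 in replicate 3, and the summit was 49 bp from Cip4, an F-BAR protein that bends membranes, and 399 bp from mRpS6. Of all bound members, mRpS6 thus had the summit farthest from its own start.

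The peak at mRpS22 (FBgn0039555; 3R, 27916436 to 27916819) had a signal of 103, with 44.2 in replicate 1 and 54.9 in replicate 3, and stood 112 bp from CG5003 and 280 bp from mRpS22. The one at mRpS18B (FBgn0032849; 2L, 20097187 to 20097570) had 87.7, with 18.4 in replicate 1 and 65.9 in replicate 3, at 126 bp from mRpS18B and 202 bp from Kua, whose mammalian relative desaturates ether lipids. The weakest site was the promoter of mRpS7 and Cdk1, the kinase that drives entry into mitosis (FBgn0032236; 2L, 10386270 to 10386653). Its signal was 80.0, with 54.6 in replicate 3 and no region in replicate 1, and the summit was 200 bp from either start. The lowest signal in the whole IDR set was 74.8, so this peak was close to the authors' limit.

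**Figure D1:**
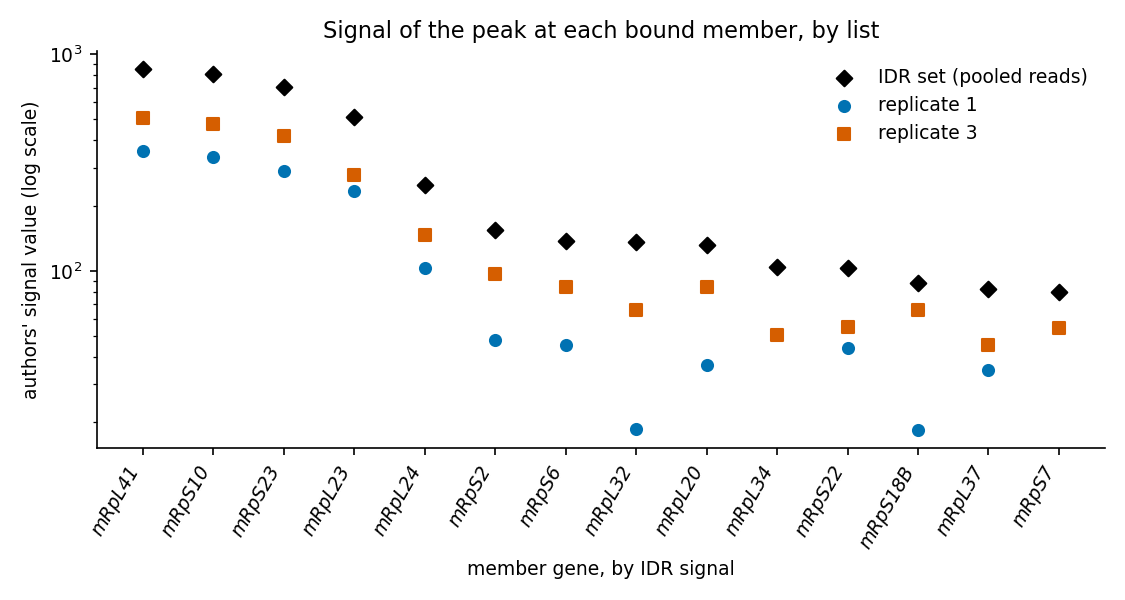
Authors' signal value (log scale) of the peak at each of the 14 bound mitochondrial ribosomal protein genes, in the IDR set, in replicate 1 and in replicate 3. Each point is 1 region; mRpL34 and mRpS7 have no point for replicate 1, and for mRpL32 the summit inside the 500 bp window is plotted. The 4 strong sites lie at 515 to 857 in the IDR set and the other 10 at or below 249.

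In 12 of the 14 cases (85.7%) a region of each replicate's full list overlapped the peak, compared with 92.4% of all 2962 IDR peaks; replicate 3 held all 14. Where both had a region, their summits lay 9 to 91 bp apart with a median of 21.5 bp, beside a median of 24.0 bp over all IDR peaks matched in the same way, by the nearest summit. Signals were higher in replicate 3 at all 12, by a factor of 1.18 to 3.59 with a median of 1.44; over all IDR peaks found in both lists the median factor was 1.41. At the 4 strong sites the factor stayed between 1.18 and 1.45. At the 8 weaker ones it ran from 1.24 to 3.59, with the highest values at mRpS18B (3.59) and mRpL32 (3.54), which ranked 11541 and 10891 in replicate 1. The full lists hold background regions as well as peaks. In replicate 1 the signals at mRpS18B and mRpL32 were 18.4 and 18.7, beside a median of 16.8 over its list. Their deposited −log10 q-values there were 0.41 and 0.44, so these overlaps are weak evidence of a peak in replicate 1. At other IDR peaks the factor ran from 0.620 to 3.64 for pooled signals of 500 to 1000, and from 0.195 to 9.36 for those under 250. Their medians were 1.35 and 1.46, beside 1.42 at the 4 strong and 1.94 at the 8 weaker member sites. Across the 12 sites the Spearman coefficient of the replicate signals was 0.91, as a description of sites that share the same libraries. With as many top-ranked regions of a single replicate as the IDR set has peaks, replicate 1 alone had 11 members bound (15.1%, beside 9.19% of protein-coding genes) and replicate 3 alone 14 (19.2%, beside 11.5%). In replicate 1 mRpL32, mRpL34, mRpS18B and mRpS7 were missing and mRpS25 was added, and in replicate 3 mRpL37 was missing and mRpL18 was added.

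Divergent promoters were common among these genes, bound or not. Of the 73, 53 (72.6%) had the start of a protein-coding gene on the other strand within 500 bp upstream, compared with 27.3% of all protein-coding genes, 39.1% of cytosolic ribosomal protein genes and 44.3% of oxidative phosphorylation subunit genes. Among the 14 bound members 13 had such a partner, and among the 59 others 40 did. Divergent genes were bound more often in the genome at large, at 20.3% beside 7.39% of genes without a partner. In the same classes the mitochondrial ribosomal protein genes had 13 of 53 (24.5%) and 1 of 20 (5%) bound. A gene with a partner is counted as bound whichever of the pair the protein sits at, so the share of 19.2% is to be read against the number of shared promoters.

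The gap between the paired starts ranged from 24 bp at mRpL23 and CG9004 to 492 bp at mRpS23 and CenG1A among the bound members, with a median of 328 bp, and the median was 181 bp among the 40 pairs outside the IDR set. With a gap of up to 250 bp, 3 of 25 members were bound (12%), beside 17.1% of all protein-coding genes with such a gap. With a gap of more than 250 and up to 500 bp, 10 of 28 were bound (35.7%), beside 23.7%. Applying the genome's shares for these classes and for genes without a partner to the 73 members gave 12.4 genes (17%), close to the 14 observed. The same sum gave 11.6 genes for the 92 cytosolic ribosomal protein genes, of which 55 were bound, and 11.2 for the 88 oxidative phosphorylation genes, of which 5 were bound.

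**Figure D2:**
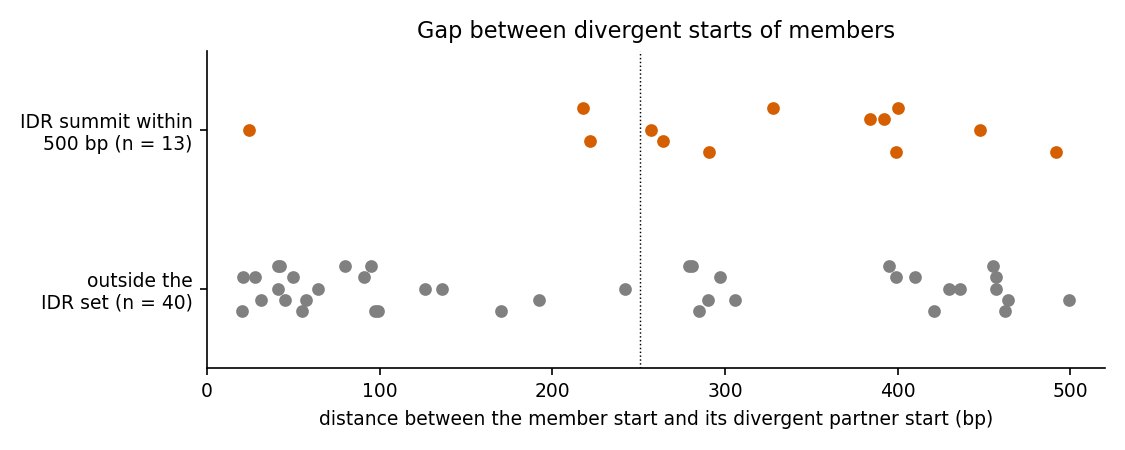
Distance between the start of each mitochondrial ribosomal protein gene and that of its divergent partner, for the 13 bound genes and the 40 genes outside the IDR set that have a partner within 500 bp. Each point is 1 gene, vertical scatter within a row only separates points, and the dotted line divides gaps of up to 250 bp from wider ones. Only 3 bound genes have a gap of up to 250 bp.

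At most of these promoters the partner was nearer to the summit. In 9 of the 14 peaks the start of another protein-coding gene was closer than that of the ribosomal protein gene, in 4 (mRpL41, mRpL23, mRpL34 and mRpS18B) the ribosomal protein start was closer, and at mRpS7 and Cdk1 the distances were equal. When a summit was assigned only to the nearest protein-coding start, with ties counted for both, 5 members were bound (6.85%). That is near the 8.24% of all protein-coding genes, and 5 genes are too few to read as a deficit. The higher share of members by the 500 bp rule was thus not seen when each summit was given to its nearest start.

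Summits lay upstream of the ribosomal protein genes rather than at their starts, and in 9 of 14 cases another protein-coding start was nearer. The distance from the ribosomal protein start ran from 399 bp upstream to 67 bp downstream, with a median of 179 bp upstream. In 13 of 14 cases the summit was over 100 bp upstream of that start. Among 1510 other bound protein-coding genes the median was 158 bp upstream, and 69% were over 100 bp upstream. For the 761 of these with a divergent start the median was 132 bp upstream, and 64.5% were over 100 bp upstream. At cytosolic ribosomal protein genes the summits were nearer the start, a difference that was not tested: the median over 55 bound genes was 28 bp upstream, and 6 of 55 (10.9%) were over 100 bp upstream. In the annotation 12 of the 14 summits were intergenic, and those of mRpL23 and mRpL32 lay in 5' UTRs.

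**Figure D3:**
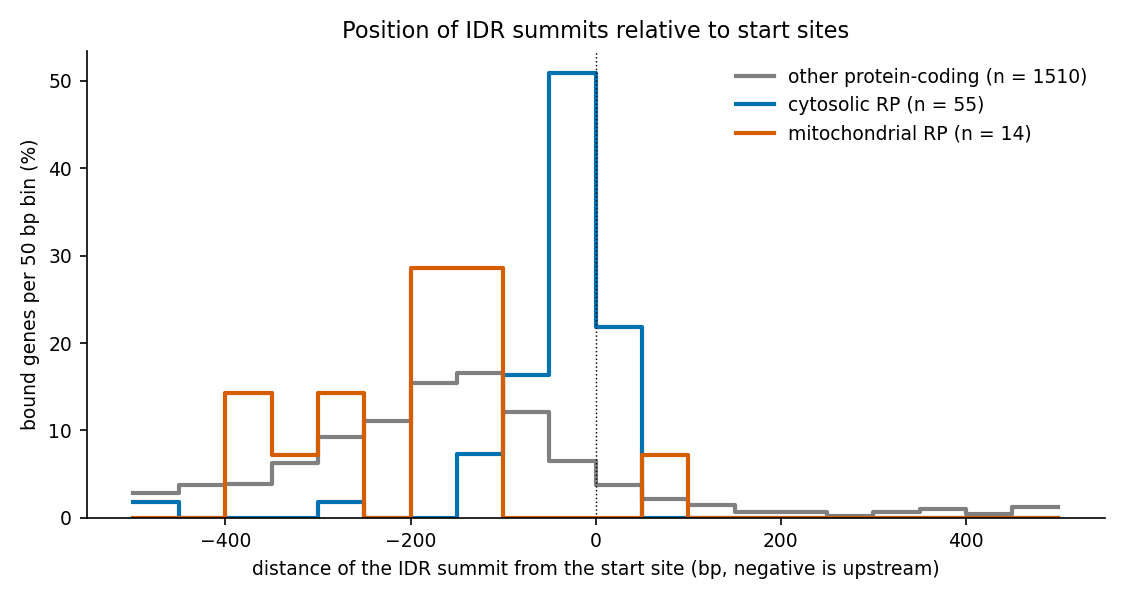
Distance in bp from the start site to the strongest IDR summit within 500 bp, as the share of bound genes in 50 bp bins, for 14 mitochondrial ribosomal protein genes, 55 cytosolic ribosomal protein genes and 1510 other bound protein-coding genes (the latter include the cytosolic ones). The mitochondrial group peaks between 100 and 200 bp upstream, and the cytosolic group within 50 bp of the start.

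Member summits were lower in GC than those of the cytosolic genes, a difference that was not tested. In windows of 50 bases to either side the GC content at the 14 sites had a median of 27.7% and ranged from 15.8% at mRpL20, where a run of 30 bases held no G or C, to 45.5% at mRpS6. Other IDR peaks at protein-coding starts had a median of 32.7%, and peaks at cytosolic ribosomal protein genes 47.5%. In flanks 200 to 300 bp to either side the member sites had a median of 37.6%. Low GC content was also seen at members that were not bound: at the same median distance upstream of the 59 other starts it was 29.7%, beside 34.7% over all protein-coding genes. In 11 of the 14 sites the summit window was lower in GC than its flanks; at mRpS23 they were equal, and at mRpL32 and mRpS6 the summit was higher.

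**Figure D4:**
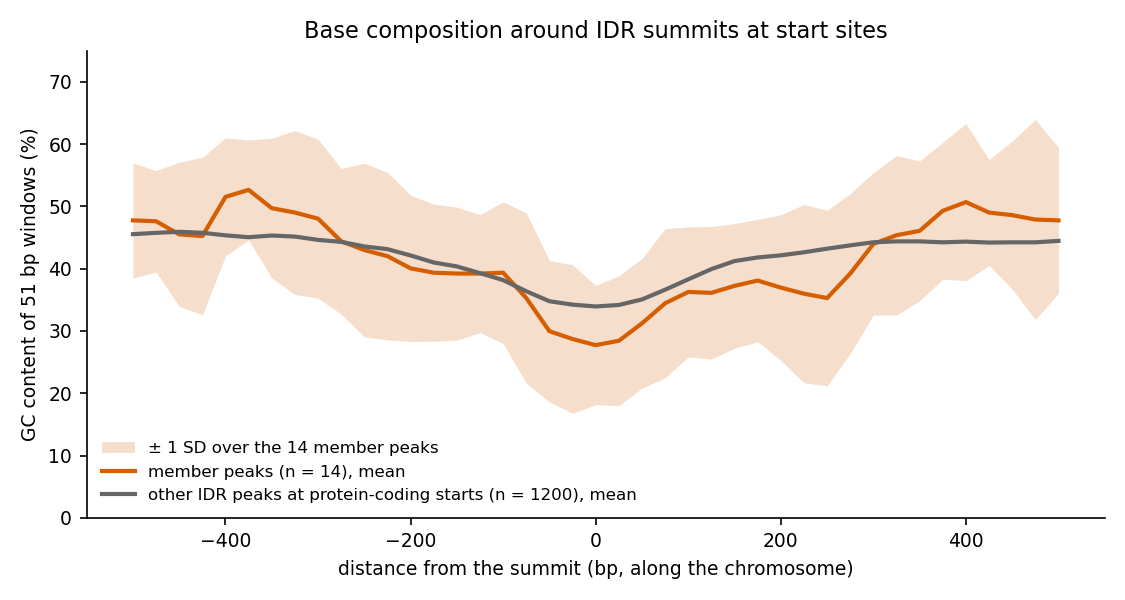
Mean GC content of 51 bp windows against the distance from the IDR summit for the 14 member peaks (band, 1 SD over peaks) and for 1200 other IDR peaks at protein-coding starts. At the summit the member mean is 27.7% and that of the other peaks 33.9%, and the band includes the other mean.

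The word most typical of CG6654 summits elsewhere was not found at these sites. ACAGTTTG, counted with its reverse complement, had the largest excess over flanks among words of 8 bases at the 2948 other IDR peaks, with 5.63% of summit windows (50 bases to either side) against 0.695% of flank windows. It was in 0 of the 14 member windows, also with 100 bases to either side or with 1 mismatch allowed. With 1 mismatch 20.2% of the other peaks had a match. At other peaks near protein-coding starts it was also less common (2.58%), and 14 windows are few. Of all 73 member promoters (250 bp before to 50 bp after the start) only 1, outside the bound set, held it (1.37%, beside 1.52% of all protein-coding promoters).

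Other promoter elements were searched on both strands. The E-box CAGCTG, which reads the same on both strands, was in 40 of 73 member promoters (54.8%), compared with 17.6% of all protein-coding promoters and 9.78% of those of cytosolic ribosomal protein genes. It was in 7 of 14 bound and 33 of 59 other members. Its matches centred on the start, at a median of 11 bp upstream for bound and 4 bp downstream for other members. Of the summit windows with 50 bases to either side, 0 of 14 held it, beside 3.29% of other IDR peaks, a share at which 14 windows show nothing about the members. With 100 bases to either side it was at mRpL24, mRpS2 and mRpL32 (3 of 14), beside 7.16% of other IDR peaks and 9.92% of those at other starts. The DNA replication-related element, TATCGATA, was in 4 of 14 bound promoters (mRpL20, mRpL32, mRpS18B and mRpS23), in 11 of 59 others, and in 9.36% of all. A Motif 1 core was in 8 of 59 other and 0 of 14 bound member promoters (6.04% of all); the copies at the mRpS6 summit printed above lie beyond that promoter window, at 66 and 22 bases before the summit. At IDR peaks that are not at members, 0.339% of summit windows of 50 bases to either side held this core. With 100 bases to either side, as printed for mRpS6, the share was 0.848%, and 1.83% for those at other protein-coding starts. GAGAG was in 12 of 73 member promoters (29.7% of all), TATAAA in 34 (45.8% of all) and the core GCGCATGC of the NRF-1 site in 1 (1.05% of all). A match of letters is no evidence of a bound site.

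The remaining 59 genes were grouped by which lists held a region near them. The unthresholded lists hold background as well as peaks, so a region in them need not be a bound site. In the unthresholded lists of 30000 regions each, 35 of 73 members had a pooled region within 500 bp (47.9%, beside 37.1% of protein-coding genes), 18 had one in replicate 1 (24.7%, beside 26.6%), 48 in replicate 3 (65.8%, beside 46%) and 18 in both replicates (24.7%, beside 17.6%). Over its full list replicate 1 thus held regions at members about as often as at other genes, unlike its top-ranked regions given above. A gene held in several lists needed only a summit within 500 bp of a start in each, not the same region. Outside the IDR set, 6 genes had a region in both replicates: mRpL11, mRpL21, mRpL48, mRpS24, mRpS25 and mRpS26. At mRpL11, mRpL21 and mRpS24 the summits of the replicates lay on opposite sides of the start. For replicates 1 and 3 they were at 488 and -31 bp at mRpL21, and at -382 and 225 bp at mRpS24. At mRpL48, mRpS25 and mRpS26 they lay on the same side. A further 15 genes had a region in the pooled list and replicate 3: mRpL4, mRpL18, mRpL35, mRpL36, mRpL39, mRpL42, mRpL53, mRpL54, mRpS5, mRpS16, mRpS18A, mRpS18C, mRpS21, mRpS29 and mRpS31. In replicate 3 alone there were 13: mRpL1, mRpL2, mRpL10, mRpL13, mRpL15, mRpL16, mRpL19, mRpL27, mRpL28, mRpL44, mRpL49, mRpL55 and mRpS9.

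No region of any list lay within 500 bp of the starts of 25 members. These were mRpL3, mRpL9, mRpL12, mRpL14, mRpL17, mRpL22, mRpL30, mRpL33, mRpL38, mRpL40, mRpL43, mRpL45, mRpL46, mRpL47, mRpL50, mRpL51, mRpL52, mRpS11, mRpS14, mRpS17, mRpS28, mRpS30, mRpS33, mRpS34 and mRpS35. With no read totals in the lists, how weak a site could have been listed is unknown.

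**Figure D5:**
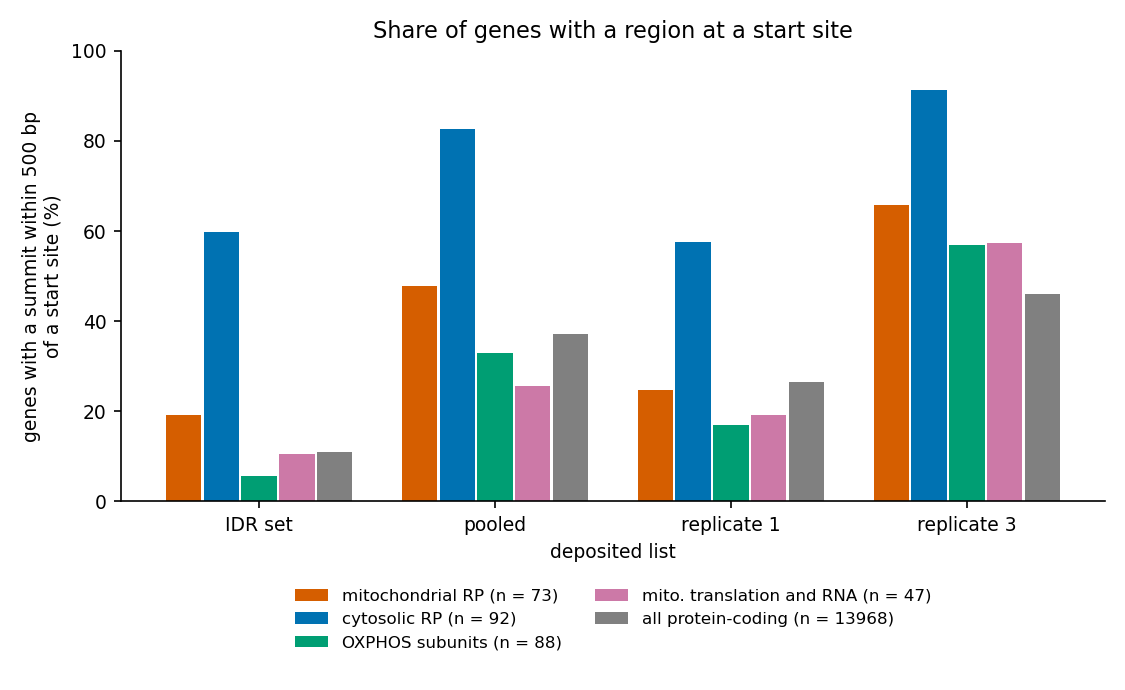
Share of genes with a region summit within 500 bp of a start site in the IDR set, the pooled list and the list of each replicate, for 73 mitochondrial ribosomal protein (RP) genes, 92 cytosolic RP genes, 88 oxidative phosphorylation (OXPHOS) subunits, 47 other genes of mitochondrial translation and RNA, and all 13968 protein-coding genes. The mitochondrial RP bar is above that of all genes in the IDR set, the pooled list and replicate 3, and slightly below it in replicate 1.

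The members just below the limit of the IDR set were led by mRpS25 on the X chromosome (FBgn0030572; X, 14583196 to 14583579). Its pooled signal was 74.2, under the lowest IDR signal of 74.8, with 53.4 (rank 1432) in replicate 1 and 33.8 (rank 5105) in replicate 3. At mRpL18, whose start is 20 bp from that of Taz, the gene of the cardiolipin-remodelling enzyme tafazzin, the pooled signal was 68.1, with 50.8 in replicate 3 and no region in replicate 1. The pooled signal was 60.9 at mRpS29, 60.1 at mRpS26, 52.1 at mRpL11 and 49.1 at mRpS24. Over the 21 members with a pooled region outside the IDR set the signal ran from 24.2 to 74.2 with a median of 37.5, and the whole pooled list had a median of 27.5.

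None of the 11 X-linked members had an IDR peak, and 10.3% of X-linked protein-coding genes did. At that share 11 genes would hold about 1, so the count is too small to set the X apart. Of the X-linked members 1 had a pooled region (34.4% of X-linked protein-coding genes), 1 a region in replicate 1 (22.9%) and 3 a region in replicate 3 (45.8%). The bound members were spread over the other arms, with 5 of 12 on 2L (11.3% of all protein-coding genes there), 2 of 12 on 2R (9.89%), 3 of 17 on 3L (11.4%) and 4 of 21 on 3R (11.7%).

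Other genes that serve mitochondrial translation were counted by the same rule. Of 47 such genes, 5 were bound (10.6%), a share near the 10.9% of all protein-coding genes. None of the 15 mitochondrial aminoacyl-tRNA synthetase genes was bound. Among 13 translation factors and tRNA-charging subunits 2 were, mIF2, the mitochondrial initiation factor that brings in the first tRNA (3R, 28544213 to 28544997), and GatA, a subunit of the amidotransferase that makes glutaminyl-tRNA. The peak at mIF2 had a signal of 2497, above that of every ribosomal protein member, with 975 in replicate 1 and 1567 in replicate 3, and its summit lay 229 bp downstream of the start. GatA had a signal of 115, with 39.1 in replicate 1 and 75.9 in replicate 3. Of 17 genes for mitochondrial transcription and RNA processing 3 were bound: PNPase, an exoribonuclease (903), SLIRP2 (455) and SLIRP1 (168), RNA-binding proteins that in mammals stabilise mitochondrial mRNA. Of mitochondrial ribosome genes without the mRp prefix, 2 of 7 names looked up were matched, tko and bonsai, and these had no region except in replicate 3, with signals of 20.8 and 17.4.

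Set beside the other ribosome, 55 of 92 cytosolic ribosomal protein genes were bound, with a median peak signal of 147, led by RpS27 (521), RpL7 (384), RpLP2 (366) and RpL32 (284). The mitochondrial genes had fewer peaks within 500 bp but higher leading ones, since the 3 highest member signals, 857, 813 and 709, were above the highest cytosolic one. Of these, the summits with 813 and 709 were nearer to the starts of Art3 and CenG1A than to those of mRpS10 and mRpS23. Oxidative phosphorylation subunits had 5 of 88 bound, with signals of 262 at ND-ASHI, 187 at ND-MWFE, 114 at ATPsynE and 107 at ND-SGDH. Genes of the respiratory chain and of the ribosome that serves it had different shares, 5.68% and 19.2%, a difference that was not tested. A divergent partner was present for 44.3% and 72.6% of them, and a summit at a shared promoter can count for both genes.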

How the data were processed

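The labels describe 2 biological replicates, 1 and 3, of 1 group. The authors' deposited dm6 lists were used: an IDR set of 2962 peaks, and unthresholded lists of 30000 regions for each replicate and for pooled reads. The unthresholded lists are labelled as peaks and background. Per the notes deposited with each library, regions were called against a control and the IDR set was derived from the other 3 lists. Which programs aligned the reads and called the regions, in which version and at which IDR limit, is not given in the sources used here. A score accompanies every region, which is the authors' deposited signal value and has no stated scale. The deposited −log10 q-value was not used for filtering. The deposited offset gave the summit. Because the lists carry no read totals, the depth is unknown and no counting interval was given. Lists on dm3 were not used.

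Start sites of 13968 protein-coding genes came from Ensembl release 115 (transposable elements left out), and sequence from the RefSeq Release 6 genome, the same build as dm6; positions count from 1. A gene was bound when a summit lay within 500 bp of any transcript start. A peak was matched to the overlapping replicate region (1 bp or more) with the nearest summit. The leading word was found in windows of 50 bases to either side of the summit against flanks 200 to 300 bp away, without member peaks. Of 41 pathway genes listed by name, 32 were matched; the synthetases, cytosolic ribosomal proteins and oxidative phosphorylation subunits were taken by symbol pattern. Named genes were all bound members, genes starting within 500 bp of their summits (1 of which is not reported here), the 6 members of highest pooled signal outside the IDR set, up to 4 leading genes of the cytosolic and oxidative phosphorylation lists, and CG6654; all 5 bound genes of the mitochondrial translation list, and tko and bonsai, were named after their values were seen, and the split by partner gap, the sums over gap classes, the base composition, the X-linked split and the matching by nearest summit were also chosen after seeing the data. The members and lists were chosen with earlier results of these data known. No test was made, since there is 1 group; the distance and word routines were tested on simulated data. Python 3.11.15, NumPy 2.4.6, SciPy 1.17.1 and Matplotlib 3.10.9 were used. Alternatives covered the window, start sites, signal limit, overlap, word search and each replicate alone.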

Additional observations from a re-analysis of the deposited data

How the results depend on the processing

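The count of bound members depended on how a summit was tied to a gene. It was 14 in the reported setting, with a window of 1000 bp and with only the 5' end of each gene. It was 9 with a window of 250 bp (12.3%, beside 7.95% of protein-coding genes, 1111), losing mRpL20, mRpL32, mRpS22, mRpS23 and mRpS6, and 9 when peaks below the median signal (the lower 50%) were left out (12.3%, beside 6.13%, 856 genes). It was 6 when the region had to overlap the start itself (8.22%, beside 5.3%, 741 genes) and 5 with the nearest start only (6.85%, beside 8.24%). For the small subunit the 7 bound genes became 4, 4, 2 and 2 under these settings in the same order, and for the large subunit 4 under overlap and 3 under the nearest start. With each replicate alone, members bound ranged from 11 to 14, small-subunit genes from 6 to 7, large-subunit genes from 5 to 7 and protein-coding genes from 1283 to 1610, and the mitochondrial translation list stayed at 5. The median percentile of member peaks was 95.5 in the pooled list and 95.7 in that of replicate 3. In replicate 1 it was 94.3, over only the 12 peaks with a region there. These peaks were picked from the IDR set, so high percentiles were given in advance and say nothing about the members. Members with a region in both replicate lists, not necessarily the same region, fell from 18 to 10 with a window of 250 bp. Bound members with a divergent partner fell from 13 to 3 when the partner had to start within 250 bp. Matching each peak to the highest-ranked overlapping region, an alternative chosen after seeing the data, gave a replicate Spearman coefficient of 0.95 in place of 0.91. With a reciprocal overlap of at least 50%, 10 of the 14 peaks instead of 12 were matched in both replicates. No paired analysis was possible because there is 1 group and no test. Unknown depth limits what a missing region can mean.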

Other observations

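Several ribosomal protein genes start head to head with another nuclear gene for a mitochondrial protein. The pairs, picked by eye from the partner names, were mRpL18 with Taz (gap 20 bp), mRpL55 with ATPsynD, a subunit of ATP synthase (95 bp), mRpL11 with HtrA2, a protease of the intermembrane space (126 bp), mRpL35 with Mitofilin, which shapes the cristae (192 bp), and mRpL32 with qless (264 bp). Only the last had an IDR peak, and 1 of 5 is near the 20.3% of all protein-coding genes with a divergent start. The best pooled signal within 500 bp of the ribosomal protein start was 68.1 at mRpL18, 52.1 at mRpL11 and 37.5 at mRpL35, and mRpL55 had a region in replicate 3 alone (17.0). Partners at the other bound promoters included Cdk1, Dg, Mon1, Cip4, CenG1A, Icmt and betaggt-I, which are not known chiefly as mitochondrial genes.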
